A study of Arabidopsis thaliana with 35 samples.

Results

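Transcripts of 60 class III peroxidase loci were followed in shoot apices of wild-type and *clf swn* Arabidopsis. The loci were chosen by their locus identifiers out of a table of 28775 genes, and most of the description concerns the 52 loci other than the 8 that the study names for oxidative stress. RNA-seq counts came from 35 libraries in 10 groups. Wild type (WT) was Col-0, and the mutant (*cs* in group names) carried the *clf-29* and *swn-3* alleles, mutations in genes for catalytic subunits of Polycomb repressive complex 2 (PRC2), which keeps genes silent through histone H3 methylation. Mutant seedlings were picked out from the progeny of parents that still carried a working *CLF* copy. Untreated tissue was taken from plants grown for 14 days (WT-ctrl, 5 libraries, and *cs*-ctrl, 6 libraries). The other groups had 3 libraries each and were collected 55 h later: after the solvent DMSO alone (WT-M and *cs*-M, mock), 5 µM of the synthetic auxin 2,4-D (WT-A and *cs*-A), a cut that removed the root from the shoot (WT-W and *cs*-W, wounding), or the cut together with 2,4-D (WT-WA and *cs*-WA). For each library, cotyledons, leaves and roots were trimmed off to leave the regions of the shoot apical and axillary meristems. In such pieces of mixed tissue, fewer cells of a type and less RNA per cell cannot be told apart.

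Class III peroxidases are secreted haem enzymes found in plants. In the cell wall they use hydrogen peroxide to couple monolignols and other phenolics, which stiffens the wall with lignin and cross-links, and in another catalytic cycle they release reactive oxygen that loosens it. The genes form a large family with many tandem copies, and a good part of them is known from roots, where single members mark root hairs or other cell types. Respiratory burst oxidases (RBOH proteins) make the superoxide from which apoplastic peroxide arises, and UPB1 is a transcription factor known for repressing peroxidase genes in the root tip.

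Counted reads per library ran from 11375703 to 18094983, so that 3 counts corresponded to 0.166 to 0.264 CPM, counts scaled by the library total. The wild-type range of *CLF* was 29.5 to 55.6 CPM and the mutant range 0.775 to 1.92 CPM, and every label fitted its genotype. *SWN* transcripts remained at 18.7 to 33.3 CPM in the mutant against 39.6 to 68.7 CPM in wild type. Shoot apex markers were present, with a sum over 6 genes of 182 to 256 CPM in WT-M and 325 to 392 CPM in *cs*-M. One library stood apart: *cs*-W replicate 3 had 1.49% organelle reads, while the other 34 had at most 0.791%.

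The peroxidase loci took up more reads in wild type than in the mutant, and the treatments widened the set of loci that was expressed. The summed level was 4717 ± 272 CPM (SD, n = 3) in WT-M and 2281 ± 152 CPM in *cs*-M, and the libraries of the genotypes did not overlap. One gene, *PRXR1* (AT4G21960), made up 58.1% to 59.1% of that sum in WT-M and 74.2% to 75.5% in *cs*-M. Without *PRXR1*, the sum rose from 1957 ± 131 CPM in WT-M to 3012 ± 342 CPM in WT-WA, and the mutant sum from 572 ± 32.5 CPM with mock to 1276 ± 255 CPM in *cs*-WA. Between 31 and 33 loci exceeded 1 CPM in a WT-M library and 40 to 43 in a WT-WA library. The range was 25 to 27 in *cs*-M, 28 to 31 in *cs*-A, 34 to 39 in *cs*-W and 43 to 47 in *cs*-WA. These counts include the 8 named loci. The study reports its oxidative stress category among genes raised in *cs*-WA of these same data. All 8 exceeded 1 CPM in every *cs*-WA library, while AT1G05240 and AT1G05250 did so in no WT-WA library. The counts therefore do not show a broader set in the mutant than in wild type after the combined treatment. Over all genes in the table, the mock and combined groups stood in the same order. Genes above 1 CPM numbered 18126 to 18213 in *cs*-M, 18316 to 18449 in WT-M, 18569 to 18681 in WT-WA and 18825 to 18936 in *cs*-WA.

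**Figure D1:**
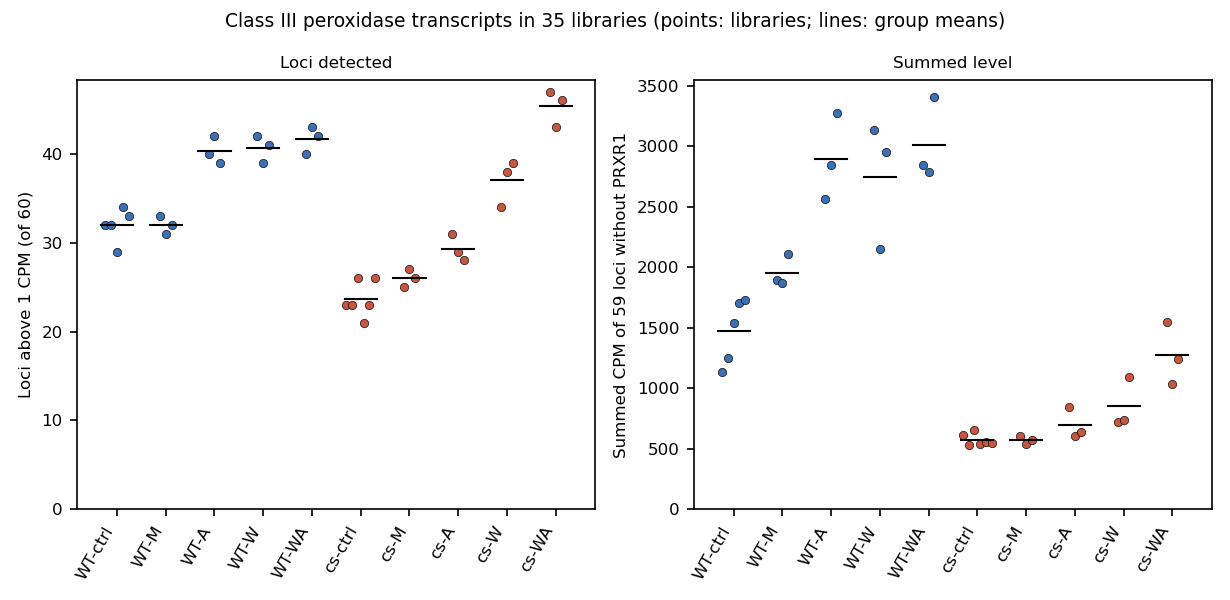
Each point is 1 of 35 libraries, blue for wild type and red for *clf swn*, with a line at the group mean; the left axis counts loci above 1 CPM out of 60, and the right axis gives the summed CPM of the 59 loci other than *PRXR1*. The 3 *cs*-WA libraries have 43 to 47 loci above 1 CPM, the most of any group, while their summed level, 1039 to 1546 CPM, lies below every WT-M library.

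Levels of different genes were compared per kilobase of exon. *PRXR1* led in both genotypes, at 1509 ± 78.8 CPM per kb in WT-M and 935 ± 67.4 in *cs*-M (SD, n = 3 each). It was followed in WT-M by *PRXCA* (AT3G49110) at 337 ± 30, AT5G58390 at 235 ± 11.4, AT5G64110 at 125 ± 14.5 and AT4G37520 at 125 ± 23.9 CPM per kb. The order in *cs*-M was AT1G71695 at 110 ± 8.60, *PRXCA* at 66.2 ± 10.9, AT5G58390 at 63.2 ± 2.12 and AT2G22420 at 33.2 ± 2.92 CPM per kb. Within WT-M, AT5G64110 and AT4G37520 did not differ beyond their spread, and in *cs*-M neither did *PRXCA* and AT5G58390. *PRXCA* and its close homologue *PRXCB* (AT3G49120) are known from the oxidative burst against pathogens.

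**Figure D2:**
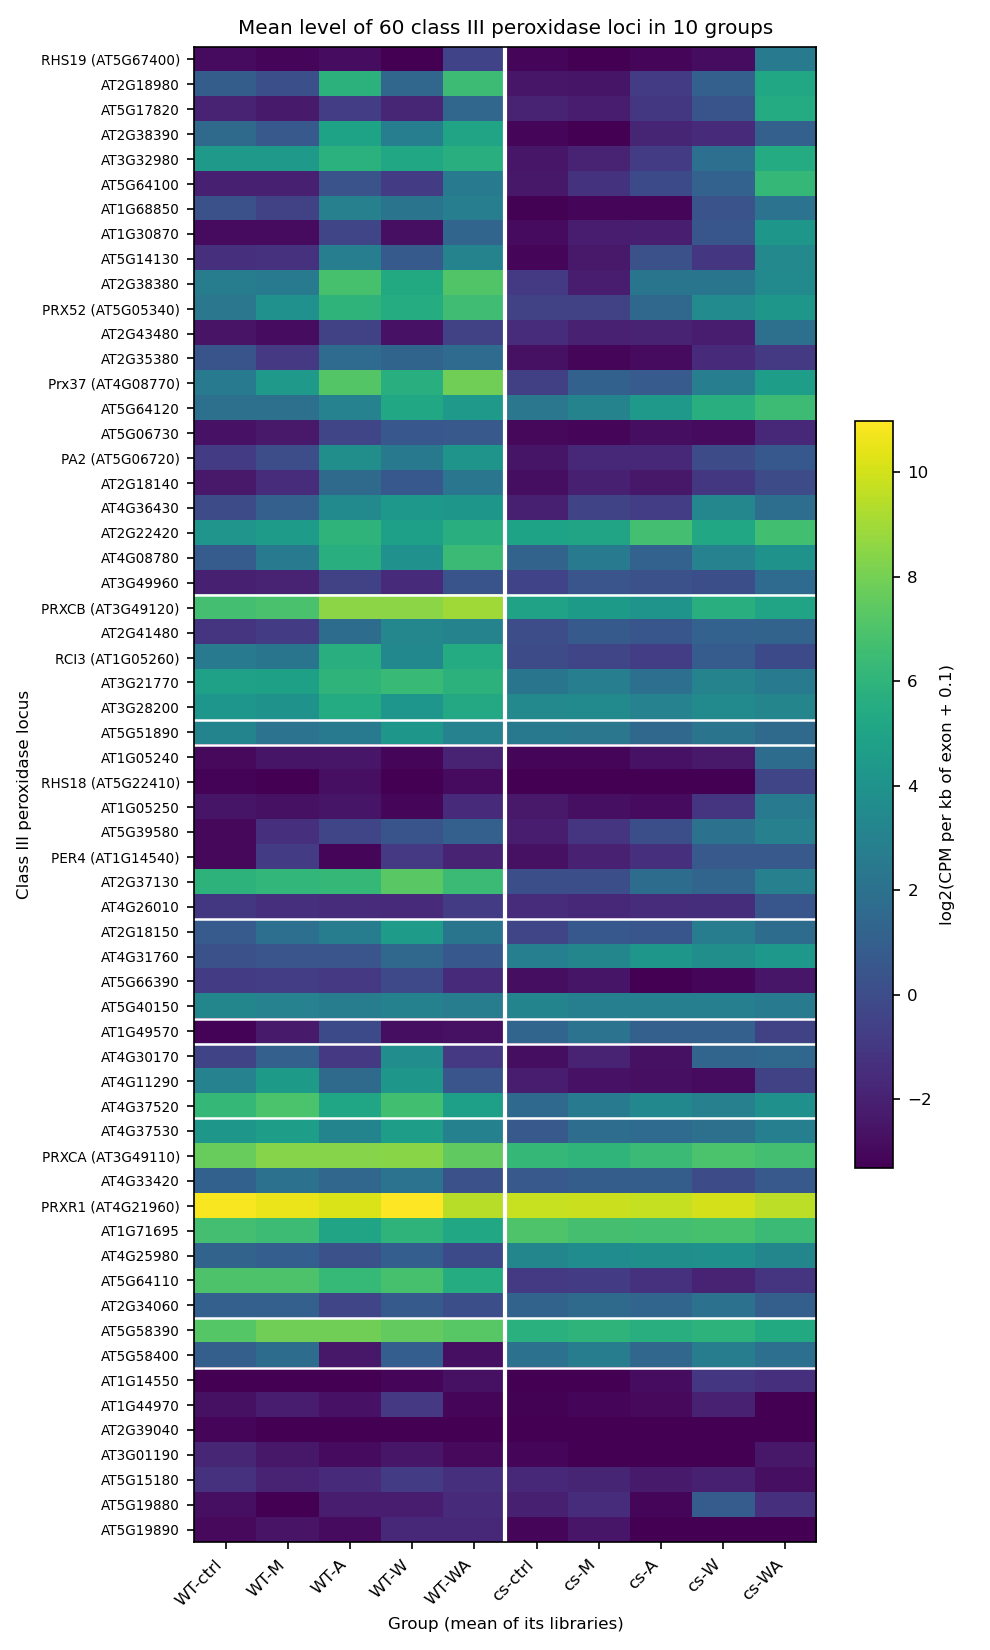
Rows are the 60 loci and columns the 10 groups, coloured by log2 of the mean CPM per kb of exon plus 0.1; white lines part the loci by their calls in WT-WA against WT-M and then in *cs*-WA against *cs*-M, with the 7 loci that were not tested at the bottom. The first block holds the 22 loci that rose in both genotypes, and *PRXR1* has the highest level in every group.

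Of the 60 loci, 53 had enough reads to be tested, among them 45 of the 52 on which the description centres. The test was edgeR's quasi-likelihood F test in a single model of the 10 groups, with Benjamini-Hochberg adjustment over 21115 genes, and a gene was called where the adjusted p was under 0.05 and the size of the log2 fold change reached 0.6. The filter keeps a locus that is well expressed in 1 group only, so the tested loci are not a fair sample of all 60. The remaining 7 loci stayed low: AT2G39040 had 1 count in all libraries together, and AT1G14550, AT1G44970, AT3G01190, AT5G15180 and AT5G19890 reached at most 1.36, 0.698, 0.707, 0.874 and 0.527 CPM. AT5G19880 reached 4.73 CPM in *cs*-W replicate 3, the library with the most organelle reads.

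The first question was how the mutant differs from wild type without a treatment. Most peroxidase loci that differed were lower in *clf swn*. In *cs*-M against WT-M, 26 of 53 tested loci were called lower and 6 higher, where 17.1% and 14.4% of all genes tested were called in these directions. In untreated tissue, *cs*-ctrl against WT-ctrl, 27 were lower and 8 higher (20.4% and 13.6% of all genes). Replicate numbers are repeated within each untreated group, and the labels do not say whether libraries with equal numbers came from the same plants, in which case these p-values are too small. With the 3 libraries per genotype of set C0 alone, a name taken from the column headers, 25 were lower and 8 higher. *Prx37* (AT4G08770), AT4G30170 and AT5G58400 then lost their calls (adjusted p = 0.0774, 0.0617 and 0.101), and AT4G08780 was called higher (adjusted p = 0.0481). The median log2 fold change of the loci was -1.54 in *cs*-M and -1.04 in *cs*-ctrl, beside medians of 0.00 over all genes. Seed storage genes moved with the genotype: the sum of 3 seed markers was 10.5 to 28.8 CPM in WT-M and 11629 to 18841 CPM in *cs*-M. Of the leaf mesophyll markers, 3 of 4 were called lower (summed level 5955 to 7462 CPM in WT-M and 3691 to 4641 CPM in *cs*-M), and of the root endodermis markers 2 of 3 tested, *CASP1* and *MYB36*, which were at 0 in *cs*-M (sum of 4 markers 2.07 to 2.32 CPM in WT-M and 0.874 to 1.56 CPM in *cs*-M). Shoot apex markers were called higher in 3 of 5 cases. Their part in the peroxidase differences was not tested.

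AT5G64110 was abundant in wild type and nearly silent in the mutant. Its level was 203, 163 and 173 CPM in the WT-M libraries and 0.924, 0.822 and 0.262 CPM in the *cs*-M ones, a log2 fold change of -7.98 ± 0.54 (SE, adjusted p = 4.08e-13). Untreated wild type spanned 99.7 to 270 CPM (median 177) and untreated mutant 0.186 to 1.21 CPM. No library of one genotype came near the other. AT3G32980 was at 35.5, 34.8 and 25.8 CPM in WT-M and at 0.355, 0 and 0.437 CPM in *cs*-M (-6.84 ± 0.45, adjusted p = 3.15e-13). AT2G37130 was at 115, 105 and 125 CPM against 1.78, 1.64 and 1.31 CPM (-6.14 ± 0.49, adjusted p = 1.6e-11). Neither pair of groups overlapped. AT4G11290 was at 35.4, 28.7 and 26.1 CPM in WT-M, while *cs*-M had 3 counts in all, a ratio of 374 (95% interval 128 to 1816, exact, counting error only). AT2G38390 was at 3.01, 1.55 and 1.79 CPM in WT-M and at 0 in the 3 *cs*-M libraries, at least 8.87-fold lower with a floor of 3 counts per library.

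In untreated tissue AT1G68850 and AT2G38390 also stood among the strongest decreases, with 1 and 2 counts over the 6 *cs*-ctrl libraries. The wild-type level was 0.75 to 1.93 CPM for AT1G68850, a ratio of 127 (22.2 to 5061), and 2.93 to 4.93 CPM for AT2G38390, a ratio of 187 (51.3 to 1552). The abundant genes took part as well: *PRXCA*, *PRXCB* and AT5G58390 were at 530, 481 and 574, at 142, 182 and 203 and at 345, 314 and 323 CPM in WT-M, and at 123, 92.2 and 95.5, at 41.2, 29.4 and 28.6 and at 87.1, 86.1 and 91.6 CPM in *cs*-M.

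The loci higher in the mutant were near the share of all genes, 11.3% against 14.4% in *cs*-M and 15.1% against 13.6% in *cs*-ctrl. AT1G49570 was at 0.232, 0.111 and 0.138 CPM in WT-M and at 10.7, 3.61 and 5.25 CPM in *cs*-M (log2 fold change 5.35 ± 0.77, adjusted p = 1.38e-06), and untreated wild type held 1 count in 5 libraries. AT4G25980 was at 1.93, 2.65 and 3.04 against 13, 18.1 and 20.1 CPM (2.77 ± 0.24, adjusted p = 7.73e-11), but 33.5% of its exon bases lie in another gene and the library kit does not mark strand. AT3G49960 (3.01 ± 0.46) and AT2G41480 (1.83 ± 0.41) were called higher at less than 3 CPM in every mock library, and in untreated tissue both were higher too. Of the 8 loci named by the study, AT4G31760 was higher in *cs*-M (2.91 ± 0.50), and AT2G43480 was called in *cs*-ctrl alone of these comparisons (adjusted p = 0.0357), a call that ended without any of 5 libraries, *cs*-ctrl set C0 libraries 1 and 3 or WT-ctrl set C0 libraries 1, 2 and 3 (adjusted p up to 0.183).

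The next comparisons asked how wild type responds to 2,4-D, to wounding and to both. Each treatment raised more peroxidase loci than it lowered, and wounding lowered none by the rule. WT-A against WT-M gave 26 higher and 9 lower of 53 (19.7% and 20.7% of all genes), WT-W against WT-M 22 higher and 0 lower (10.8% and 8.31%), and WT-WA against WT-M 28 higher and 13 lower (23% and 25%). For the absence of lower loci in WT-W, 26 of the 53 had an unadjusted p under 0.05 in either direction. The 3 comparisons share the WT-M libraries. None of the 8 named loci was called in WT-W, although AT4G31760 was with the replicate number as a block (log2 fold change 1.08, adjusted p = 0.0399).

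AT2G18980 rose most in fold, and it did so with auxin. It was at 1.47, 1.27 and 0.966 CPM in WT-M, at 62.4, 73.3 and 76.9 CPM in WT-A, at 2.58, 1.96 and 4.59 CPM in WT-W and at 125, 74.8 and 125 CPM in WT-WA. The groups with 2,4-D lay far above the others (log2 fold change 5.83 ± 0.42 in WT-A and 6.44 ± 0.42 in WT-WA, adjusted p = 9.61e-13 and 8.02e-14). Outside the named 8, AT5G14130 came next in WT-WA, from 0.54, 0.387 and 0.414 CPM in WT-M to 7.48, 9.35 and 12.3 CPM in WT-A and 10.9, 8.41 and 17.1 CPM in WT-WA (4.43 ± 0.38 and 4.75 ± 0.38). The neighbours AT2G38380 and AT2G38390 rose together, the first from 9.57, 9.62 and 11.4 CPM to 223, 239 and 227 CPM in WT-WA (4.49 ± 0.29, adjusted p = 4.81e-14) and the second from the values above to 44.2, 42.7 and 51.2 CPM (4.45 ± 0.33).

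Further rises in WT-WA were those of AT2G18140 (4.27 ± 0.45), AT2G41480 (4.24 ± 0.38), *PA2* (AT5G06720, 4.15 ± 0.40), AT5G06730 (3.93 ± 0.51), AT4G08780 (3.93 ± 0.38), *Prx37* (AT4G08770, 3.49 ± 0.55), AT1G68850 (3.48 ± 0.35) and *RCI3* (AT1G05260, 3.30 ± 0.32), all with adjusted p of 2.6e-06 or less. *Prx37* went from 27.7, 23.4 and 37.8 CPM to 269, 400 and 332 CPM, and the 2 groups were widely separated. *Prx37* is known for dwarfing plants when overexpressed, *PA2* for a role in lignification and *RCI3* for its induction by cold. *PRXCB* rose from 142, 182 and 203 CPM to 704, 715 and 807 CPM (2.07 ± 0.35), and per kilobase it was then second only to *PRXR1*.

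Wounding without auxin gave another order. AT2G41480, which is also annotated as *PRX25* and known from lignin formation in stems, went from 0.463, 0.221 and 0.828 CPM in WT-M to 7.75, 15.4 and 9.11 CPM in WT-W (4.44 ± 0.38, adjusted p = 1.76e-09), above its WT-A values of 3.09, 5.14 and 2.65 CPM. AT5G64120, also annotated as *PRX71*, went from 2.7, 4.42 and 7.94 to 65.9, 32.7 and 52 CPM (3.33 ± 0.85, adjusted p = 0.00264), and AT4G36430 from 2.55, 1.93 and 3.73 to 32.5, 20.8 and 27.6 CPM (3.32 ± 0.45, adjusted p = 1.75e-06). AT5G06730 (3.81 ± 0.52) and AT1G68850 (2.86 ± 0.36) completed the 5 largest. AT2G18150 rose in WT-W, at 39.5, 31.4 and 27.5 CPM against 3.86, 5.19 and 6.42 CPM (2.68 ± 0.47), and it was called in neither treatment with 2,4-D, whereas its neighbour AT2G18140 rose in all 3 treatments. That contrast changed with the fit: AT2G18150 was called higher in WT-A with the replicate block (0.89, adjusted p = 0.0407) and in the fit of WT-A and WT-M alone (0.82, adjusted p = 0.021).

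The falls in wild type were all called in treatments with 2,4-D. AT5G58400 was at 3.94, 4.81 and 3.31 CPM in WT-M and at 0.0719, 0.0658 and 0.204 CPM in WT-A (-5.05 ± 0.56, adjusted p = 6.3e-09), and WT-WA held 3 counts in all, a ratio of 63.6 (21.4 to 311) between mock and treatment. AT4G11290 fell to 4.32, 2.7 and 4.96 CPM in WT-A (-2.92 ± 0.44) and to 1.12, 1.5 and 2.41 CPM in WT-WA (-4.16 ± 0.48, adjusted p = 9.86e-09), while WT-W was at 24, 18.1 and 34.8 CPM, overlapping mock. AT4G37520 fell from 143, 165 and 208 CPM to 34.9, 28.7 and 49.8 CPM in WT-WA (-2.19 ± 0.41) and its neighbour AT4G37530 from 22.8, 33.7 and 53.8 to 10.5, 8.35 and 14.1 CPM (-1.74 ± 0.36). Mock and WT-WA did not overlap for any of these.

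The other named falls in WT-WA were smaller: AT4G30170 (-2.19 ± 0.72), AT4G33420 (-1.91 ± 0.51), AT5G64110 (-1.44 ± 0.34), AT1G71695 (-1.31 ± 0.12), AT4G25980 (-1.17 ± 0.28), *PRXR1* (-1.14 ± 0.13), AT2G34060 (-1.05 ± 0.30) and *PRXCA* (-0.90 ± 0.34). *PRXR1* went from 2654, 2702 and 2924 CPM to 1235, 986 and 1552 CPM. The call for *PRXCA* (adjusted p = 0.0225) ended without any of WT-M replicate 3 and WT-WA replicates 1 and 2 (adjusted p up to 0.0787). In WT-A, AT4G30170 (-2.22 ± 0.73) lost its call without WT-A replicate 1 (adjusted p = 0.057). *PER4* (AT1G14540) had 30 counts in WT-M and 1 in WT-A, a ratio of 28.9 (4.8 to 1178). Its call (adjusted p = 0.0451) ended in the fit with the replicate number as a block (adjusted p = 0.0841) and without any of the 3 WT-A libraries or WT-M replicates 2 and 3 (adjusted p up to 0.124).

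In *clf swn*, either treatment alone moved a minority of the peroxidase loci. *cs*-A against *cs*-M gave 5 higher and 4 lower of 53, near the share of all genes (5.82% and 6.35%). *cs*-W against *cs*-M gave 11 higher and 0 lower, while 1.01% and 0.0568% of all genes were called. At an unadjusted p under 0.05, 26 loci and 3107 of all genes passed in *cs*-W in either direction. The number of higher loci in *cs*-W depended on single libraries. It was 5 without *cs*-W replicate 3, the library with the most organelle reads, 6 without *cs*-M replicate 1 or *cs*-M replicate 2, and 17 without *cs*-W replicate 1. It was 3 in the fit of *cs*-W and *cs*-M alone, so the counts do not rank wounding against 2,4-D.

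AT2G38380 rose with either treatment. It was at 0.355, 0 and 0.262 CPM in *cs*-M, at 10.8, 5.82 and 6.52 CPM in *cs*-A (5.11 ± 0.52, adjusted p = 1.74e-08) and at 5.78, 9.43 and 7.77 CPM in *cs*-W (5.18 ± 0.52, adjusted p = 5.74e-07), and mock lay below both. AT5G14130 rose in *cs*-A, to 1.28, 2.02 and 1.3 CPM from 0, 0.164 and 0.262 CPM (3.43 ± 0.54), and AT2G22420 went from 41.5, 46.1 and 49.5 to 177, 130 and 132 CPM (1.66 ± 0.15, adjusted p = 1.69e-09). AT2G38390 was at 0 in *cs*-M and at 0.27, 0.178 and 0.29 CPM in *cs*-A, at least 1.03-fold higher, so the depth gives no firm size. Its call (adjusted p = 0.0291) ended with the replicate block (adjusted p = 0.0687) and without any of *cs*-A replicates 1 and 3 or the 3 *cs*-M libraries (adjusted p up to 0.0951).

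AT2G37130 was at 9.85, 3.21 and 2.39 CPM in *cs*-A against 1.78, 1.64 and 1.31 CPM in *cs*-M (1.67 ± 0.53, adjusted p = 0.0212), and this rested on *cs*-A replicate 1: without it the adjusted p was 0.325, and it stayed above the threshold without any single *cs*-M library. The lower calls in *cs*-A were AT4G08780 (-1.49 ± 0.43), AT5G58400 (-1.37 ± 0.35), AT3G21770 (-0.92 ± 0.22) and AT5G51890 (-0.89 ± 0.30). Those of AT4G08780 ended without *cs*-A replicate 2 or *cs*-M replicate 1 (adjusted p up to 0.122) and those of AT5G51890 without *cs*-A replicate 2, *cs*-A replicate 3 or *cs*-M replicate 1 (up to 0.126).

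With wounding alone, AT3G32980 went from 0.355, 0 and 0.437 CPM with mock to 2.4, 4.87 and 9.37 CPM in *cs*-W (4.38 ± 0.53, adjusted p = 1.1e-05). The AT1G68850 level was 1.62, 1.62 and 1.52 CPM where *cs*-M held 1 count, a ratio of 60 (10.4 to 2405), and AT2G18980 was at 0.564, 3.62 and 3.12 CPM where *cs*-M held 3 counts, a ratio of 30.9 (10.3 to 152). *PRX52* (AT5G05340), which is known for lignin in stem fibres, went from 1.14, 0.575 and 0.612 to 9.02, 9.05 and 28.2 CPM (4.32 ± 0.84, adjusted p = 0.00499). Without *cs*-W replicate 3 its adjusted p was 0.0674. In the fit of *cs*-W and *cs*-M alone, AT3G32980 and *PRX52* were not called (adjusted p = 0.142 and 0.0712).

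Wounding and 2,4-D together raised more peroxidase loci in *clf swn* than either treatment alone. *cs*-WA against *cs*-M gave 32 higher and 4 lower of 53, where 9.81% and 8.49% of all genes tested were called. Of the 45 tested loci outside the named 8, 25 were higher and 4 lower. The median log2 fold change over the 53 was 2.55, or 2.32 with the 3 loci whose *cs*-M libraries were all at 0 set to their lower bound, and -0.02 over all genes. The call counts of the single and combined treatments rest on the same *cs*-M libraries. Without *cs*-M replicate 1, 27 loci were called higher. The 8 named loci are summarised by their sum, which was 4.9 to 15.6 CPM in *cs*-M, 17.3 to 23.9 in *cs*-A, 7.89 to 28 in *cs*-W and 222 to 252 CPM in *cs*-WA. In WT-WA it was 16.4 to 20.7 CPM. Of these 8, 7 were called higher in *cs*-WA, and AT4G31760 was not (log2 fold change 0.98 ± 0.42, adjusted p = 0.0751, 0.0078 with the replicate block). The study reports its oxidative stress category among genes raised in *cs*-WA of these same data, so their rise is no separate result.

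Outside the named set, AT3G32980 and AT2G18980 rose furthest at a level well above the floor. AT3G32980 reached 52, 74.6 and 79.2 CPM in *cs*-WA (7.89 ± 0.45, adjusted p = 6.7e-14), overlapping its WT-WA values of 83.9, 74.8 and 78.9 CPM, although every *cs*-M library was below 0.5 CPM. AT2G18980 reached 52.5, 39.1 and 43.3 CPM from 3 counts in *cs*-M, a ratio of 561 (192 to 2724). AT5G14130 reached 14.1, 16.5 and 14.1 CPM (6.63 ± 0.46, adjusted p = 5.12e-12), inside the WT-WA range. The *cs*-WA and *cs*-M libraries of these loci did not overlap.

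AT2G38380 reached 16.7, 18.8 and 18.8 CPM (6.28 ± 0.48, adjusted p = 3.31e-11), and AT2G38390 reached 1.11, 4.47 and 2.75 CPM from 0, at least 11.6-fold higher. AT1G68850 reached 3.92, 6.26 and 7.14 CPM from 1 count, a ratio of 218 (38.8 to 8658), and AT2G35380 reached 0.296, 0.575 and 0.966 CPM from 1 count, a ratio of 23 (3.78 to 942). The first, second and last of these stayed below every WT-WA library, while AT1G68850 overlapped WT-WA, and AT2G35380 stayed close to the level of 3 counts.

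Some loci, picked out after their values were seen, spread widely among the 3 *cs*-WA libraries. *PRX52* was at 39.8, 9.13 and 24.2 CPM (4.85 ± 0.82, adjusted p = 3.89e-05), AT5G39580 at 17.2, 1.21 and 10.7 CPM (4.38 ± 1.24, adjusted p = 0.00746) and AT5G64120 at 240, 28.7 and 91.3 CPM (3.34 ± 0.81, adjusted p = 0.00221), all from lower *cs*-M levels. *cs*-WA replicate 1 was the highest and replicate 2 the lowest for each, and *cs*-W replicate 3 the highest *cs*-W library, with 28.2, 14.6 and 143 CPM. *PER4* was at 3.77, 0.255 and 1.64 CPM in *cs*-WA. Its libraries overlapped mock, and the call (3.18 ± 1.22, adjusted p = 0.0474) ended with the replicate block (adjusted p = 0.114). *Prx37* varied less, at 33.5, 29.7 and 43.4 CPM from 4.9, 1.89 and 1.92 CPM (3.50 ± 0.64, adjusted p = 9.82e-05), and AT4G30170 reached 1.92, 4.85 and 3.12 CPM from 0.142, 0.0822 and 0.35 CPM (4.01 ± 0.87, adjusted p = 0.000756).

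Of the 4 lower loci, AT1G49570 fell furthest, from mock levels of 10.7, 3.61 and 5.25 CPM to 1.18, 0.447 and 1.12 CPM (-2.91 ± 0.61, adjusted p = 0.000474), with no overlap. AT5G58390 went from 87.1, 86.1 and 91.6 to 64.5, 57.8 and 53.5 CPM (-0.67 ± 0.17, adjusted p = 0.0035), and its fold change fell short of the threshold without *cs*-WA replicate 2. AT5G58400 (-0.90 ± 0.34, adjusted p = 0.0421) and AT5G51890 (-0.80 ± 0.30, adjusted p = 0.0422) were at the edge of the rule. The first overlapped mock and was lost with the replicate block (adjusted p = 0.0597) and without *cs*-M replicate 1, *cs*-M replicate 2, *cs*-WA replicate 2 or *cs*-WA replicate 3 (up to 0.292). The second was lost without any of 5 of the 6 libraries, *cs*-WA replicate 3 excepted (up to 0.159). Both were also lost with the size factors of the relative log expression (RLE) method in edgeR, which left 2 lower loci.

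The test of whether the combined treatment did more than the sum of the single ones on the log2 scale, wounding by 2,4-D in *clf swn*, called 1 locus in each direction (0.781% and 0.279% of all genes). At an unadjusted p under 0.05 the test passed 15 loci. AT2G38380 was lower than the sum (-4.01 ± 0.65, adjusted p = 0.000631), with 5.78 to 10.8 CPM in either single treatment and 16.7 to 18.8 CPM in both. AT4G08780 was higher than the sum (2.34 ± 0.56, adjusted p = 0.0358), with 2.56, 2.2 and 2.83 CPM in *cs*-A, 8.31, 6.93 and 12.7 CPM in *cs*-W and 16.9, 18.2 and 20 CPM in *cs*-WA. The AT4G08780 call ended without any of 7 libraries (the 3 *cs*-A libraries, *cs*-M replicate 1, *cs*-W replicate 2, or *cs*-WA replicates 2 and 3, adjusted p up to 0.145). The replicate block called 3 loci higher than the sum and DESeq2 6.

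The responses of the genotypes to the combined treatment were then set side by side. The libraries behind them are separate. Of the 28 loci higher in WT-WA and the 32 higher in *cs*-WA, 22 were in both lists (78.6% and 68.8% of them). The overlap of these lists over all genes was not counted, so it is open whether the shares are particular to the family. The genotype by treatment interaction, which tests the difference of the log2 fold changes, called 17 loci with a higher and 8 with a lower response in *clf swn* (24.4% and 20.8% of all genes). Among the 22 shared loci, 15 showed no called difference.

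**Figure D3:**
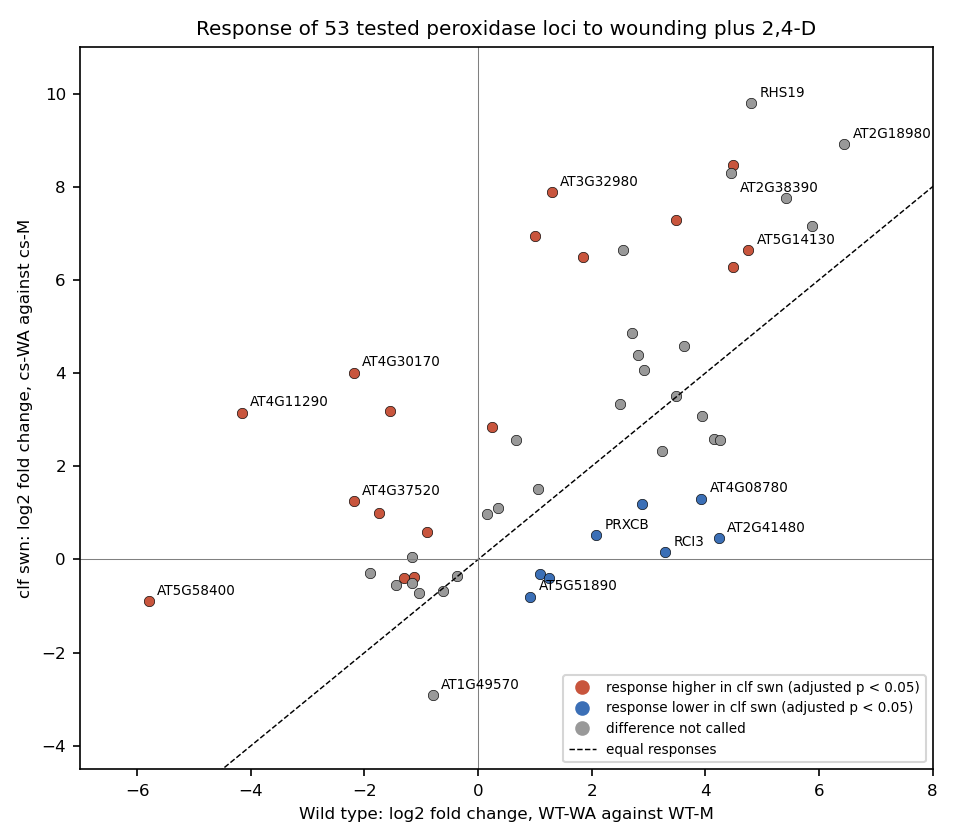
Each point is 1 of the 53 tested loci, placed by its fitted log2 fold change in wild type (x axis, WT-WA against WT-M) and in *clf swn* (y axis, *cs*-WA against *cs*-M); red and blue mark responses called higher or lower in the mutant and the dashed line equal responses. AT4G11290, AT4G30170 and AT4G37520 lie at the upper left, and *RCI3*, *PRXCB* and AT2G41480 lie to the right near 0; fitted values of loci with few mock counts, such as *RHS19* and AT2G38390, depend on the prior count.

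A group of 5 loci rose in WT-WA and was not called in *cs*-WA, and the interaction called all 5: AT2G41480 (-3.78 ± 0.52, adjusted p = 7.42e-07), *RCI3* (-3.13 ± 0.64, adjusted p = 0.000196), AT3G28200 (-1.64, adjusted p = 0.000231), *PRXCB* (-1.55, adjusted p = 0.00998) and AT3G21770 (-1.40, adjusted p = 0.000161). *RCI3* was at 43.1, 38 and 88.9 CPM in WT-WA against 7.03, 6.3 and 3.93 in WT-M, and at 1.04, 0.766 and 1.34 CPM in *cs*-WA against 0.924, 1.07 and 0.612 in *cs*-M. Wild-type libraries separated by treatment and mutant ones overlapped. AT2G41480 started higher in the mutant, at 1.78, 1.73 and 1.66 CPM in *cs*-M, and was at 3.7, 1.92 and 1.93 CPM in *cs*-WA against 11.5, 7.96 and 8.9 CPM in WT-WA. The share of all genes with this pair of calls was not counted either.

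Opposite calls were made at 4 loci, each with a called interaction, and at 5 with the replicate block. Opposite calls over all genes were not counted, so it is open whether their number is particular to the family. The fifth, AT4G37530, fell in WT-WA and was at 11.2, 7.22 and 11.2 CPM in *cs*-WA against 3.77, 3.45 and 7 CPM in *cs*-M (0.99 ± 0.40, adjusted p = 0.0618), with no overlap. It was called higher there with the block (1.04, adjusted p = 0.033), in the fit of those groups alone (adjusted p = 0.0354) and by DESeq2 (adjusted p = 0.0363), and its interaction was 2.73 ± 0.54 (adjusted p = 0.000145). AT4G11290 fell in WT-WA and, in *cs*-WA, rose to 0.814, 0.766 and 0.892 CPM from 3 counts in *cs*-M, a ratio of 10.3 (3.25 to 52.4). The *cs*-WA level was still below the lowest WT-WA library, and the call (adjusted p = 0.0235) ended without *cs*-M replicate 1 (0.116) or *cs*-M replicate 3 (0.0551). AT4G30170 fell from 1.78, 2.16 and 3.45 CPM in WT-M to 0.329, 0.261 and 0.989 CPM in WT-WA and rose in *cs*-WA, as given above. AT4G37520 fell in WT-WA and was at 27.2, 11.6 and 22.2 CPM in *cs*-WA against 6.61, 6 and 11.9 CPM in *cs*-M (1.24 ± 0.45, adjusted p = 0.0341). The mutant groups overlapped, and the call ended without *cs*-M replicate 1, *cs*-M replicate 2, *cs*-WA replicate 1 or *cs*-WA replicate 3 (adjusted p up to 0.155). AT5G51890 rose from 6.72, 4.64 and 4.76 to 7.31, 11.9 and 11.3 CPM in WT-WA (0.92 ± 0.28, adjusted p = 0.00523) and fell in *cs*-WA to 2.96, 3.64 and 4.68 CPM from 7.32, 5.34 and 5.86 CPM, a call at the edge of the rule.

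The responses to the single treatments were compared between the genotypes in the same way. For 2,4-D alone, the interaction called 7 loci with a higher and 15 with a lower response in *clf swn* (23.9% and 20.8% of all genes). Among the lower ones, AT4G08780 (-4.64 ± 0.57, adjusted p = 1.33e-07) rose in WT-A, to 48.1, 62.6 and 66.5 CPM from 6.87, 5.25 and 7.94 CPM, and fell in *cs*-A. For wounding alone, 4 loci had a higher and 3 a lower response. These are 7.55% and 5.66% of the tested loci, near the shares of all genes (8.67% and 6.39%). AT3G32980 had the largest gain (3.56 ± 0.62, adjusted p = 0.000405), with 58.5, 46.7 and 63.5 CPM in WT-W and far lower mutant levels, and AT2G41480 (-3.91 ± 0.52) and AT5G51890 (-2.27 ± 0.40) responded less in the mutant. AT5G51890 was at 20.4, 24.1 and 25.7 CPM in WT-W, above all other groups, and at 6.41, 4.99 and 4.97 CPM in *cs*-W, overlapping *cs*-M.

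**Figure D4:**
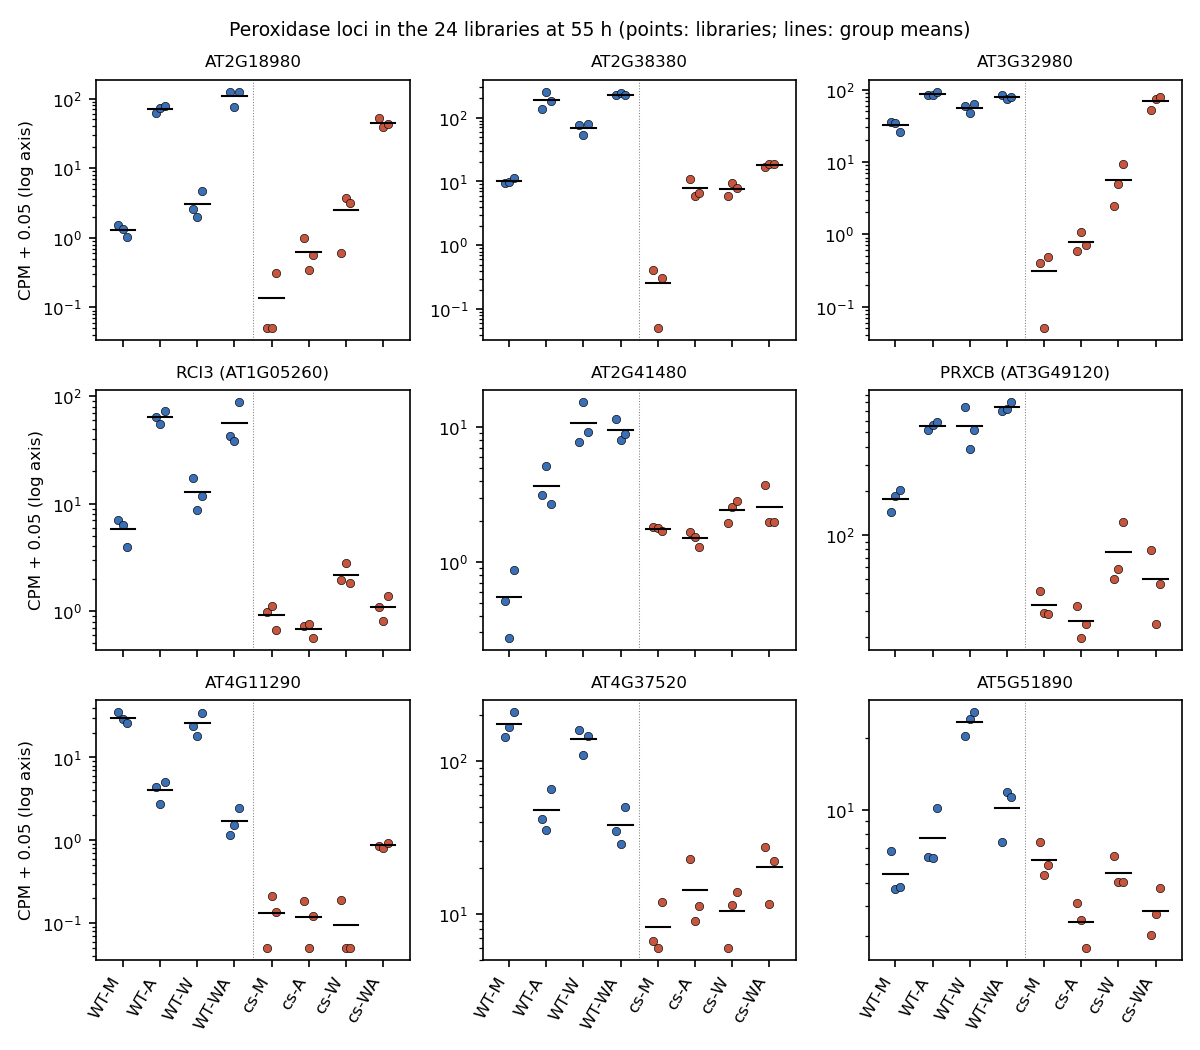
The panels show CPM plus 0.05 on log axes for 9 loci in the 24 libraries at 55 h, a point per library and a line at each group mean, wild type in blue and *clf swn* in red. AT3G32980 climbs in the mutant from under 0.5 CPM with mock to 52 CPM or more in *cs*-WA, *RCI3* stays under 3 CPM in every mutant group, and AT4G11290 falls with 2,4-D in wild type.

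Compared directly after the combined treatment, *cs*-WA against WT-WA, 20 loci were higher and 23 lower in the mutant (23.4% and 19.8% of all genes). The 8 named loci were all among the higher ones. The study reports its oxidative stress category among genes raised in *cs*-WA against groups of these same data that include WT-WA. The higher calls of the named loci are therefore no separate result here. Outside the named 8, 12 of the 45 tested loci were higher and 23 lower. AT5G58400 was higher at 6.81, 2.36 and 4.09 CPM, where WT-WA held 3 counts, a ratio of 67.2 (22.6 to 329). AT1G05240, AT1G05250 and AT5G17820, of the named 8, had log2 fold changes of 4.23 ± 0.51, 4.55 ± 0.53 and 4.06 ± 0.40. On the lower side were AT5G64110 (-7.08 ± 0.55), *RCI3* (-5.80 ± 0.39), AT2G38390 (-4.07 ± 0.32), *PRXCB* (-3.93 ± 0.38) and AT2G38380 (-3.70 ± 0.27), with no overlap of libraries. *PRXCB* was at 78.9, 24.7 and 46.2 CPM in *cs*-WA against 704, 715 and 807 CPM in WT-WA.

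With 2,4-D alone, *cs*-A against WT-A, 7 loci were higher and 32 lower (23.5% and 22.8% of all genes), and the median log2 fold change of -2.13, or -1.94 with the locus at 0 in one group set to its bound, was the lowest of the 10 comparisons between groups. AT1G68850 held 1 count in *cs*-A against 7.91, 11 and 10.7 CPM in WT-A, a ratio of 451 (80.6 to 17863). AT2G18980 was at 0.945, 0.297 and 0.507 CPM in *cs*-A and at 62.4 CPM or more in WT-A (-6.91 ± 0.46), and AT5G64110 (-7.91 ± 0.55), AT2G38390 (-7.44 ± 0.43) and AT3G32980 (-6.83 ± 0.38) were lower as well. The 5 largest of the higher ones in *cs*-A were AT5G58400 (4.66 ± 0.57), AT4G31760 (3.90 ± 0.50), AT4G25980 (3.72 ± 0.25), AT2G34060 (1.84 ± 0.31) and AT1G71695 (1.69 ± 0.12).

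Some tandem neighbours moved together and others did not. The 60 loci include 10 runs of neighbours with no other counted protein-coding gene between them, holding 22 loci, and in 8 runs every locus was tested. All loci of a run had the same call in WT-WA in 5 of these 8 runs, in *cs*-WA in 4 and between *cs*-M and WT-M in 2, and with the replicate block in 4, 5 and 2. The run of AT5G64100, AT5G64110 and AT5G64120 on chromosome 5 was followed in full. Their upstream sequences, 250 bases before each annotated gene start on the minus strand (RefSeq, TAIR10.1, 5′ to 3′ towards the gene), are shown because these neighbours had different calls, with W-boxes (TTGACC or TTGACT, the core bound by WRKY factors) in capitals on either strand.
AT5G64100 (chr5:25652248-25652497): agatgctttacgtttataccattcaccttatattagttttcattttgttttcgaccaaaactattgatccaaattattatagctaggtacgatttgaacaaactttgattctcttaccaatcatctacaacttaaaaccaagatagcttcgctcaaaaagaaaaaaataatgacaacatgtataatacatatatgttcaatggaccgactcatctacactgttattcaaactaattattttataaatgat
AT5G64110 (chr5:25656068-25656317): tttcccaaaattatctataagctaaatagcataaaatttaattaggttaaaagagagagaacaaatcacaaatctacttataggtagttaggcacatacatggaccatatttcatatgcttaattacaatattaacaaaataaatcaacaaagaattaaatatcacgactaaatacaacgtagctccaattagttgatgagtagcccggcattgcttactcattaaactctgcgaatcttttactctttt
AT5G64120 (chr5:25661008-25661257): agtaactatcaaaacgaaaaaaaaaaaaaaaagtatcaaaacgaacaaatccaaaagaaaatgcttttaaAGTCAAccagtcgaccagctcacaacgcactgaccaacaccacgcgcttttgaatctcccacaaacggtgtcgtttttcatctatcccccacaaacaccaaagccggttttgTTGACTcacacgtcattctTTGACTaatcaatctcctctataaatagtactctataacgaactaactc

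AT5G64100, one of the named 8, was at 0.142, 0.246 and 1.05 CPM in *cs*-M and at 106, 87 and 126 CPM in *cs*-WA. It also rose in WT-WA, to 13.4, 5.67 and 7.54 CPM from 0.309, 0.221 and 0.069 CPM, with no overlap in either genotype. AT5G64110 had another pattern: it lay above 40 CPM in every wild-type library and at or below 1.21 CPM in every mutant one, and no treatment of the mutant was called (0.666, 0.255 and 0.595 CPM in *cs*-WA). AT5G64120 was called higher in WT-W, WT-WA and *cs*-WA, and its mock levels of 2.7, 4.42 and 7.94 CPM in wild type and 6.54, 9.28 and 18.2 CPM in the mutant overlapped.

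Only AT5G64120 of the 3 has a W-box in the window shown, 3 times TTGACT, at -180 to -175, -68 to -63 and -49 to -44 from the gene start. Over the family, TTGACT on either strand was found in 13 of 60 windows (21.7%) against 19.1% of 26709 genes, and TTGACC in 6 (10%) against 12.2%. The auxin response elements TGTCTC and TGTCGG were in 4 (6.67%) and 2 (3.33%) of the windows, against 10.9% and 4.16%. Of the 32 loci higher in *cs*-WA, 9 had TTGACT and 0 had TGTCTC. A match describes letters in this window and no binding.

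**Figure D5:**
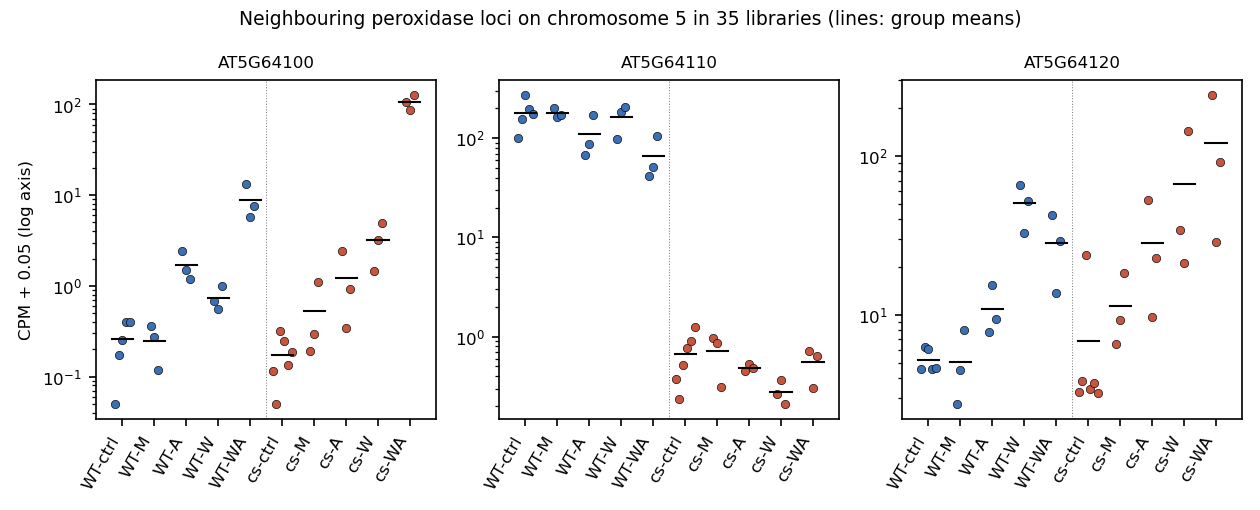
CPM plus 0.05 is plotted on log axes for the 3 neighbouring loci in all 35 libraries, a point per library and a line at the group mean, wild type in blue and *clf swn* in red. AT5G64100 is highest in *cs*-WA (87 to 126 CPM), AT5G64110 exceeds 40 CPM in every wild-type library and in no mutant one, and AT5G64120 spreads from 28.7 to 240 CPM within *cs*-WA.

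Other runs split as well. *RCI3* lies next to AT1G05240 and AT1G05250, which were at 7.85, 8.94 and 7.21 and at 8.44, 9.32 and 7.36 CPM in *cs*-WA, where *RCI3* was not called. The counts of AT1G05240 and AT1G05250 are uncertain, since 58.9% and 100% of their 50-base exon words occur elsewhere in the genome and unique alignments were kept. AT2G38380 and AT2G38390 moved alike in most groups, with 0.678% and 0.84% of words repeated. AT5G58390 and AT5G58400 differed between the genotypes in opposite directions, the first lower and the second higher in *cs*-M than in WT-M (log2 fold change of the second 0.98 ± 0.34). *Prx37* and AT4G08780 shared 6.07% and 7.44% of their words with other places, and *Prx37* was lower in *cs*-M than in WT-M (-3.28 ± 0.64) while AT4G08780 overlapped, at 10.4, 4.77 and 5.77 against 6.87, 5.25 and 7.94 CPM.

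Some members are known from root hairs. *RHS18* (AT5G22410) and *RHS19* (AT5G67400) are named root hair specific, and AT2G35380 shares with *RHS18* a match to the root hair element (RHE), a motif described upstream of root hair genes. It was found on either strand in 3 of 60 windows (5%, AT3G01190 being the other) and in 0.76% of all genes. The windows of 250 bases before the gene start (RefSeq, TAIR10.1, plus strand) are shown for that shared match, in capitals at -92 to -77 of *RHS18* and -108 to -93 of AT2G35380. The other capitals are TGTCGG on the opposite strand in *RHS18* and TTGACC on the opposite strand in AT2G35380.
RHS18 (chr5:7426060-7426309): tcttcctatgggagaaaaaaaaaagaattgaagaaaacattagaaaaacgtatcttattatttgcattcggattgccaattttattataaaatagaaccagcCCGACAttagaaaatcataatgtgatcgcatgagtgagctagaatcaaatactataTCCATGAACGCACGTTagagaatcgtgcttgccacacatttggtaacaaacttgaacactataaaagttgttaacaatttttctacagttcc
AT2G35380 (chr2:14892245-14892494): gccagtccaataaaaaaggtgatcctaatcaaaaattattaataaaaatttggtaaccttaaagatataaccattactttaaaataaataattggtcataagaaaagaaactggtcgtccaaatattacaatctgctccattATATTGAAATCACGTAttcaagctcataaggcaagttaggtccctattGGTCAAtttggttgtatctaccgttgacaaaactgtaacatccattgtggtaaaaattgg

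*RHS18* had no count in *cs*-M, *cs*-A or *cs*-W and 0.888, 0.958 and 0.818 CPM in *cs*-WA, at least 3.72-fold higher, and WT-WA held 2 counts in 3 libraries, a ratio of 20.8 (5.38 to 178) between the genotypes. DESeq2 did not call it in either comparison (adjusted p = 0.577 and 0.605). *RHS19*, one of the named 8, was at 6.51, 9.71 and 7.73 CPM in *cs*-WA, at least 33.4-fold above mock, and at 0.0658, 0.783 and 1.67 CPM in WT-WA. AT2G35380 had another pattern: it was at 0.54, 0.276 and 0.897 CPM in WT-M and rose in WT-A, WT-W and WT-WA (5.27, 3.65 and 4.02 CPM in the last, log2 fold change 2.92), above every mutant library.

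Markers of root cells were measured in the same libraries and set beside these 3 loci, of which AT2G35380 was included for its motif match alone. The other members were not compared with the markers in this way. The 3 loci and the root hair markers were all above mock in *cs*-WA. *RHS19* was at 0.144, 0 and 0 CPM in WT-A, where 2 of the 6 tested root hair markers were called higher. AT2G35380 was at 3.63, 3.03 and 3.21 CPM in WT-W, where 0 of these 6 were called higher. The sum of 7 root hair markers was 0.069 to 0.111 CPM in WT-M, 21.9 to 29.4 in WT-A, 0.0631 to 0.21 in WT-W and 46.8 to 65.6 CPM in WT-WA, and in the mutant 0.164 to 0.284 in *cs*-M, 0.435 to 0.594 in *cs*-A, 0.705 to 2.24 in *cs*-W and 47.3 to 63.8 CPM in *cs*-WA. All 6 tested root hair markers were called higher in both combined treatments. The make-up differed: *RHD6* alone gave 40.1 to 62.3 CPM in WT-WA, whereas in *cs*-WA it gave 16.5 to 21.5 CPM and the wall genes *EXPA7*, *PRP3* and *LRX1* added 6.07 to 12.4, 7.33 to 10 and 6.59 to 9.58 CPM. Those 3 were at most 0.927, 1.67 and 2.77 CPM in WT-WA. The sum of 4 root tip markers was 49.5 to 62.8 CPM in WT-M and 100 to 139 CPM in WT-WA, and the mutant had 60.5 to 62.7 CPM in *cs*-M and 97.5 to 113 CPM in *cs*-WA, with 3 of 4 called higher in both. The remaining marker was called lower in WT-WA, and in *cs*-WA the remaining one was not called. *CASP1* and *ESB1*, markers of the root endodermis, were called lower in WT-WA and no endodermis marker was called in *cs*-WA. Leaf mesophyll markers fell in WT-WA (5955 to 7462 CPM in WT-M, 462 to 595 CPM in WT-WA), with 4 of 4 called lower, and 2 of 4 were lower in *cs*-WA. Of the 5 tested shoot apex markers, 3 were called lower in WT-WA and 1 in *cs*-WA, and all 5 were higher in *cs*-WA than in WT-WA. The sum of the 6 markers was 182 to 256 CPM in WT-M and 125 to 150 CPM in WT-WA, where *CLV3* and *WUS* were at 0. It was 325 to 392 CPM in *cs*-M and 292 to 321 CPM in *cs*-WA. The part of these markers' cell types in the peroxidase levels was not tested.

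Other genes of the pathway were measured in the same libraries, where 23% and 25% of all genes were called higher and lower in WT-WA, and 9.81% and 8.49% in *cs*-WA. Of 10 respiratory burst oxidases, 6 were tested, and 4 rose in *cs*-WA and 4 in WT-WA. *RBOHC*, known for root hair growth, was at 4.88 to 7.09 CPM in *cs*-WA, where mock had at most 0.0711 CPM, and at 3.78 to 5.81 CPM in WT-WA, where mock had at most 0.497 CPM. *RBOHE* (3.31 ± 0.38 in *cs*-WA, 4.62 ± 0.35 in WT-WA) and *RBOHF* (0.82 ± 0.16 and 1.53 ± 0.15) rose in both, *RBOHB* rose in *cs*-WA (3.06 ± 0.96, adjusted p = 0.0158) and *RBOHI* in WT-WA (1.48 ± 0.32). *RBOHD*, the most abundant, was not called in either, and its *cs*-M libraries ranged from 42.8 to 365 CPM. *UPB1* was at 0 to 3.01 CPM in WT-M and 8.04 to 14.8 CPM in WT-WA (3.45 ± 0.60, adjusted p = 9.84e-06), and at 0.595 to 0.894 CPM in *cs*-WA, where it was not called against mock but was lower than in WT-WA (-3.97 ± 0.62, adjusted p = 2.75e-06).

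Of 14 genes of monolignol synthesis, the pathway that makes the lignin precursors, 5 rose and 1 fell in WT-WA and 1 rose and 1 fell in *cs*-WA, the latter near the share of all genes. In *cs*-WA, *C4H* was higher (0.62 ± 0.22, adjusted p = 0.0346) and *COMT1* lower (-0.76 ± 0.21, adjusted p = 0.00555), which rose in WT-WA (0.77 ± 0.21). The laccases *LAC4*, *LAC11* and *LAC17*, which polymerise lignin in the xylem, were all lower in WT-WA, and *LAC4* (-1.48 ± 0.34) and *LAC11* (-1.99 ± 0.54) were lower in *cs*-WA. Among catalases and cytosolic ascorbate peroxidases, the intracellular enzymes that remove peroxide, *CAT2* (-0.62 ± 0.18) and *CAT3* (-0.87 ± 0.18) were lower in *cs*-WA, and in WT-WA *CAT1* was higher and *CAT3* lower. These lists were chosen with earlier results of these data known.

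The tested loci also include AT5G40150, which was called in none of the 10 comparisons between groups and lay between 7.89 and 16.3 CPM in all libraries. The highest group mean lay in *cs*-WA for 15 of the 53 tested loci, in WT-W for 11, in WT-WA for 10, in WT-A for 6, in WT-M and *cs*-W for 3 each, in WT-ctrl for 2, and in *cs*-ctrl, *cs*-M and *cs*-A for 1 each. The same count over all genes was not made. Loci such as *RHS18* pass the filter only through the group where they are high, so these numbers do not rank the groups. Close copies limit some values: AT4G37520 and AT4G37530 had 4.97% and 4.9% of their 50-base exon words elsewhere in the genome, *PRXCA* and *PRXCB* 7.23% and 7.47%, and AT2G18140 and AT2G18150 4.65% and 3.15%. Exons of AT5G40150, AT4G08780 and AT5G51890 overlap other genes over 18.7%, 12.1% and 9.43% of their length, and without strand the reads of such stretches cannot be told apart.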

How the data were processed

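RNA-seq was made from 35 libraries in 10 groups with a kit that does not mark strand. Per the labels and the study's methods, the authors trimmed reads with Trimmomatic 0.32, kept unique TopHat2 2.0.10 alignments to TAIR10 and counted them per gene with HTSeq, and the deposited table holds raw counts for 28775 genes. From these counts, edgeR 4.0.16 (R 4.3.3) was used with filterByExpr, TMM factors, 1 quasi-likelihood model of the 10 groups and Benjamini-Hochberg adjustment over 21115 genes. Genes were called where the adjusted p was below 0.05 and the log2 fold change reached 0.6 in size (interactions: adjusted p alone), and SE is the fitted log2 fold change divided by the square root of F. CPM are counts scaled by a library's own total, and levels between genes are per kilobase of exon (RefSeq, TAIR10.1). A fold against a group at 0 uses a floor of 3 counts per library, and ratios with 1 to 3 counts carry exact 95% intervals for counting error only. Totals of 11375703 to 18094983 counts set the precision of low levels.

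The members and lists were chosen with earlier results of these data known. Named were the 12 called members with the largest change in each direction of *cs*-WA against *cs*-M and WT-WA against WT-M, leaving the 8 that the study names to a summary, the 5 largest per direction elsewhere, the 5 highest per kilobase in each mock group, members with opposite calls and tandem neighbours. Replicates came from batches made at different times, so replicate numbers pair the libraries at 55 h. Over 84 same-numbered pairs, the correlation of deviations from the group means ran from -0.26 to 0.46 (median 0.083), with 36 over 0.1. Alternatives were RLE size factors, no filter or a filter of 10 counts, the replicate block, fits of the compared groups alone, adjusted p alone, a fold rule per replicate, DESeq2 1.42.0, the untreated set C0 alone, and leaving out each library. The columns named C2 were taken as the mock groups.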

Additional observations from a re-analysis of the deposited data

Results flagged for a closer look

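Single untreated libraries stood apart at 3 of 54 levels examined (loci of at least 1 CPM on average in groups of 4 to 10 libraries, Dixon's test), where chance alone sets apart about 1 group in 20. AT5G64120 was at 23.8 CPM in *cs*-ctrl set C0 library 3, with the others at 3.17 to 3.79 CPM. AT2G34060 was at 3.86 CPM in WT-ctrl set C0 library 1, with the others at 2.37 to 2.56 CPM, and AT4G31760 at 2.11 CPM in WT-ctrl set C1 library 1, with the others at 0.731 to 0.886 CPM.

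The response differed between the genotypes at the following named loci, as the difference of log2 fold changes, mutant minus wild type (edgeR, Benjamini-Hochberg). For 2,4-D it was higher in the mutant at AT5G58400 (3.67, adjusted p = 9.3e-05), AT4G37520 (2.67, adjusted p = 0.000637), AT2G37130 (1.61, adjusted p = 0.0397), AT4G37530 (1.48, adjusted p = 0.0305) and AT1G71695 (1.38, adjusted p = 1.44e-07), and lower at AT4G08780 (-4.64, adjusted p = 1.33e-07), AT2G18140 (-4.13, adjusted p = 0.00202), AT1G49570 (-4.05, adjusted p = 0.00181), AT1G30870 (-4.01, adjusted p = 0.0318) and *RCI3* (-3.94, adjusted p = 2e-05). Without single libraries the calls of AT1G30870, AT2G18140, AT2G37130 and AT4G37530 ended, with adjusted p up to 0.107, 0.327, 0.351 and 0.244; the AT2G18140 call ended without *cs*-M replicate 3 alone, and those of the other 3 without any of 6 to 8 libraries, *cs*-A replicate 1 and *cs*-M replicate 1 among them.

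For wounding, the difference was higher at AT3G32980 (3.56, adjusted p = 0.000405), AT2G18980 (3.55, adjusted p = 0.0306), AT2G38380 (2.39, adjusted p = 0.0186) and AT1G71695 (0.57, adjusted p = 0.0204), and lower at AT2G41480 (-3.91, adjusted p = 2.27e-05), AT5G51890 (-2.27, adjusted p = 0.000475) and AT3G21770 (-1.23, adjusted p = 0.00342). The AT1G71695 call ended with the replicate block (adjusted p = 0.0598) and without *cs*-M replicate 3, *cs*-W replicate 1, WT-M replicate 2 or WT-W replicate 2 (up to 0.0552), the AT2G38380 call without *cs*-M replicate 2 (0.0862), and the AT2G18980 call without any of 7 libraries (up to 0.109): *cs*-M replicates 1 and 2, *cs*-W replicates 2 and 3, WT-M replicates 1 and 2, and WT-W replicate 2.

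For the combined treatment, the difference was higher at AT4G11290 (7.31, adjusted p = 2.22e-06), AT3G32980 (6.59, adjusted p = 1.29e-10), AT4G30170 (6.20, adjusted p = 5.52e-05), AT1G05240 (5.94, adjusted p = 0.00016), AT5G58400 (4.90, adjusted p = 3.76e-06) and AT4G37520 (3.43, adjusted p = 3.2e-05), and lower at AT2G41480 (-3.78, adjusted p = 7.42e-07), *RCI3* (-3.13, adjusted p = 0.000196), AT4G08780 (-2.62, adjusted p = 0.000151), AT5G51890 (-1.72, adjusted p = 0.00109) and AT3G49960 (-1.70, adjusted p = 0.0173). The AT3G49960 call ended without *cs*-M replicate 3, WT-M replicate 2 or WT-M replicate 3 (up to 0.0641). AT4G11290, AT2G18980, AT1G05240, AT1G30870, AT3G32980, AT4G30170, AT2G38380, AT2G18140, AT1G49570 and AT3G49960 had 0 to 3 counts in a mock library or group. The size of their fitted differences therefore depends on the prior count.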

How the results depend on the processing

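Across the named calls, 1156 values under other settings kept their direction and side of the threshold and 37 lost the threshold, and no value changed sign. Calls of loci that a setting did not test are in neither number. Examples are AT2G38390 in *cs*-A and AT2G18980 in *cs*-W in the fits of the compared groups alone. With 1 library left out, 982 stayed called and 88 did not. Counts moved by over 1.5 times in these cases. Lower loci in WT-W went from 0 to 1 with adjusted p alone. Higher loci in *cs*-A were 8 with DESeq2 and lower ones 2 with the fold rule per replicate. Higher loci in *cs*-W were 3 in the fit of those groups alone. Lower loci in *cs*-WA were 2 with RLE size factors, 2 without a filter and 1 with the fold rule per replicate. Higher loci in *cs*-ctrl against WT-ctrl were 3 with the fold rule per replicate. Higher responses to wounding in the mutant were 2 in the fit of 24 libraries with no block, and those above the sum of the single treatments were 6 with DESeq2.

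With the replicate block, 3 loci were above that sum in place of 1. Over all 14 comparisons, the block ended 9 member calls and added 18, and it moved no other count by over 1.5 times. Among the calls it ended was AT5G14130 in *cs*-M against WT-M (adjusted p = 0.051).

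Leaving out 1 library gave 0 to 1 lower loci in WT-W, 3 to 5 higher and 2 to 5 lower in *cs*-A, 5 to 17 higher in *cs*-W, 27 to 33 higher and 1 to 3 lower in *cs*-WA, 4 to 7 higher for the 2,4-D interaction, 2 to 5 higher for the wounding interaction and 0 to 4 above the sum of single treatments. The extremes were without *cs*-A replicates 1 and 2, *cs*-W replicates 3 and 1, *cs*-M replicate 1 and *cs*-WA replicate 2, *cs*-M replicate 1, WT-M replicate 2, and *cs*-A replicate 2 and *cs*-W replicate 1. Depth limits levels under about 0.264 CPM, the value of 3 counts in the smallest library. The causes of these shifts were not tested.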

Other observations

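The 2 sets of untreated wild-type libraries, C0 and C1 in the column names, which the labels do not explain, differed at some loci, chosen after their values were seen. *Prx37* was at 1.7 to 2.68 CPM in the 3 libraries of set C0 and at 16.3 and 16.6 CPM in those of set C1. AT4G37520 was at 44.5 to 84.9 CPM in set C0 and at 164 and 155 CPM in set C1. In untreated mutant libraries, AT4G37520 lay between 3.23 and 4.83 CPM over both sets. With 3 libraries against 2, no test of these differences was made.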
